A study of Mus musculus with 4 samples.

Results

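The genes described here are 7 interferon regulatory factors of the mouse, Irf1, Irf2, Irf3, Irf4, Irf5, Irf7 and Irf8, taken by name from the array's annotation, with Irf9 left aside. All 7 had a row that named them alone, among 19752 genes with such a row. Irf1 had a further row, and the row with the higher mean was used. Irf7 rose about as far at 2 h as at 8 h of interferon alpha, Irf4 and Irf8 fell at 8 h and passed no test at 2 h, and Irf1, Irf2, Irf3 and Irf5 passed no test at either time.

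RNA came from CD4+ T cells of the spleen of male C57BL/6 mice aged 6 weeks. The cells were enriched by negative selection, which removes other cells and leaves the wanted ones untouched, and all 4 samples had first been activated for 48 h with beads against CD3 and CD28. Baseline cells (2 arrays) received no cytokine. The other arrays held cells given interferon alpha (IFNa), a type I interferon, at 100 U/ml for 2 h (1 array) or 8 h (1 array). The preparation note of both IFNa samples speaks of Janus kinase inhibitors as given or not given, whereas the cytokine label names IFNa alone. Cells kept without IFNa for 2 h or 8 h were not analysed here, so that IFNa and time in culture cannot be told apart. The labels do not say whether the baseline arrays came from separate mice or cultures, so every p-value rests on how far these 2 arrays lay apart, a spread that may be technical, and each IFNa array was assumed to vary as a baseline array does.

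Interferon regulatory factors are transcription factors that share an amino-terminal DNA-binding domain with a row of conserved tryptophans, which contacts GAAA repeats in DNA. Irf3, Irf5 and Irf7 wait in the cytoplasm and are switched on by phosphorylation downstream of nucleic acid sensors and Toll-like receptors. Irf7 is itself a classical target of ISGF3, a complex with Stat2 and Irf9 that forms after type I interferon binds its receptor, and it amplifies the production of interferon alpha. Irf1 is an activator induced most strongly by interferon gamma, and Irf2 binds the same sites and often opposes it. Irf4 and Irf8 are lymphoid and myeloid members that bind weakly alone and pair with partners such as the Ets factors PU.1 and Spi-B or the AP-1 factor Batf. In T cells Irf4 is induced by the antigen receptor and is needed for the expansion and effector differentiation of activated cells.

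The bases before the transcription start of the 4 members that the results turn on, and of Irf2, are shown because the type I interferon signal reaches genes through short DNA elements. The windows are the 250 bases before the RefSeq start (the most upstream one where RefSeq gives several), 5′ to 3′ on the gene's strand, in the build GRCm38.p6. Capitals mark matches, on either strand, to the core of the interferon-stimulated response element (ISRE), searched as GAAA, any 2 bases and GAAA again, and to the gamma-activated site (GAS), searched as TTC, any 3 bases and GAA.
Irf7, chr7:141266425-141266674, minus strand: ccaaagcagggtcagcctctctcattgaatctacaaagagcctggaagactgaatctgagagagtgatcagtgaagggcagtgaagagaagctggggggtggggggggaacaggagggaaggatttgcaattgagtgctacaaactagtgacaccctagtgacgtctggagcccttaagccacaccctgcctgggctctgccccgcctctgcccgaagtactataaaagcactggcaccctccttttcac
Irf4, chr13:30748983-30749232, plus strand: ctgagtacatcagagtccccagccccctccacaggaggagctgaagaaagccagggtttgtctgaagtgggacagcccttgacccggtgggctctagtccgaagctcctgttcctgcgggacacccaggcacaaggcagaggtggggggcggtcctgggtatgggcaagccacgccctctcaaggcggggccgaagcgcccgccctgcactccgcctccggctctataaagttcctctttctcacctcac
Irf8, chr8:120736108-120736357, plus strand: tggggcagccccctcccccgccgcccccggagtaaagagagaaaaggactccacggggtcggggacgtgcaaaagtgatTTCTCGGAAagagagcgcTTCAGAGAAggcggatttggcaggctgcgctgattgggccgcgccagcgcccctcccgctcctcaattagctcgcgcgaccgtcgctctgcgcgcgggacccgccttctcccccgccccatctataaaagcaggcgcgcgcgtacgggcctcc
Irf1, chr11:53769764-53770013, plus strand: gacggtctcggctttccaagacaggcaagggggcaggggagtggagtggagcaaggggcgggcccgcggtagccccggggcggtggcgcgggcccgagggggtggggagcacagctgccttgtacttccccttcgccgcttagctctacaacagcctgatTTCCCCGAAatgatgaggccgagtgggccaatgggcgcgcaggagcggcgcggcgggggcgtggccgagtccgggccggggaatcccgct
Irf2, chr8:46739495-46739744, plus strand: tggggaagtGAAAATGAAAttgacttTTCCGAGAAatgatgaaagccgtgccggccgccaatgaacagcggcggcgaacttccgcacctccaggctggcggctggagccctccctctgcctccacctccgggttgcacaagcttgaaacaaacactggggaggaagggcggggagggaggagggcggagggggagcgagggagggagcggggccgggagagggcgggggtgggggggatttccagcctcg

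RefSeq gave 32851 such windows over all genes, of which 2.98% held the ISRE core and 7.02% held the GAS letters. All 7 members were found there, with 9 windows. The Irf2 window held 1 ISRE core and 1 GAS match, the first Irf8 window held 2 GAS matches and the first Irf1 window held 1. The windows of Irf3, Irf4, Irf5 and Irf7, and the second windows of Irf1 and Irf8, held neither, which says only that these letters are not in these bases. The GAS match of Irf1 lay 82 to 90 bases before the start, those of Irf8 lay 163 to 171 and 145 to 153 bases before it, and the ISRE core of Irf2 lay 232 to 241 bases before it. A kappa B site, bound by NF-kB and searched as GGG, any 5 bases and CC, is not capitalised because 45.8% of the windows held these letters. All 7 members had at least 1 such match in some window, as did 48.7% of all genes. The second windows of Irf1 and Irf8 had none. None of these matches overlapped the other motifs. No binding was measured, and a match is a description only.

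Values are given as log2 of the deposited array intensity, and a log2 difference of 1 is a doubling. The upper quartile of intensity was 669 for baseline 1, 730 for baseline 2, 769 for the 2 h array and 574 for the 8 h array, so the arrays do not share a distribution, and the number of arrays limits the precision. Over 10699 tested genes the median log2 difference was 0.06 at 2 h and −0.16 at 8 h against baseline, and −0.25 at 8 h against 2 h. It was −0.01, 0.00 and 0.00 after quantile normalization, which forces 1 distribution on all arrays, and 0.15, −0.24 and −0.43 when each array was centred on its median. The T cell markers Cd3e, Cd3d, Cd3g, Cd4, Cd5, Zap70 and Cd28 were all measured, with differences from baseline between −0.04 and 0.18 at 2 h and between −0.23 and 0.38 at 8 h, none called. RNA from fewer cells of a type and less RNA per cell cannot be told apart in these bulk samples.

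**Figure D1:**
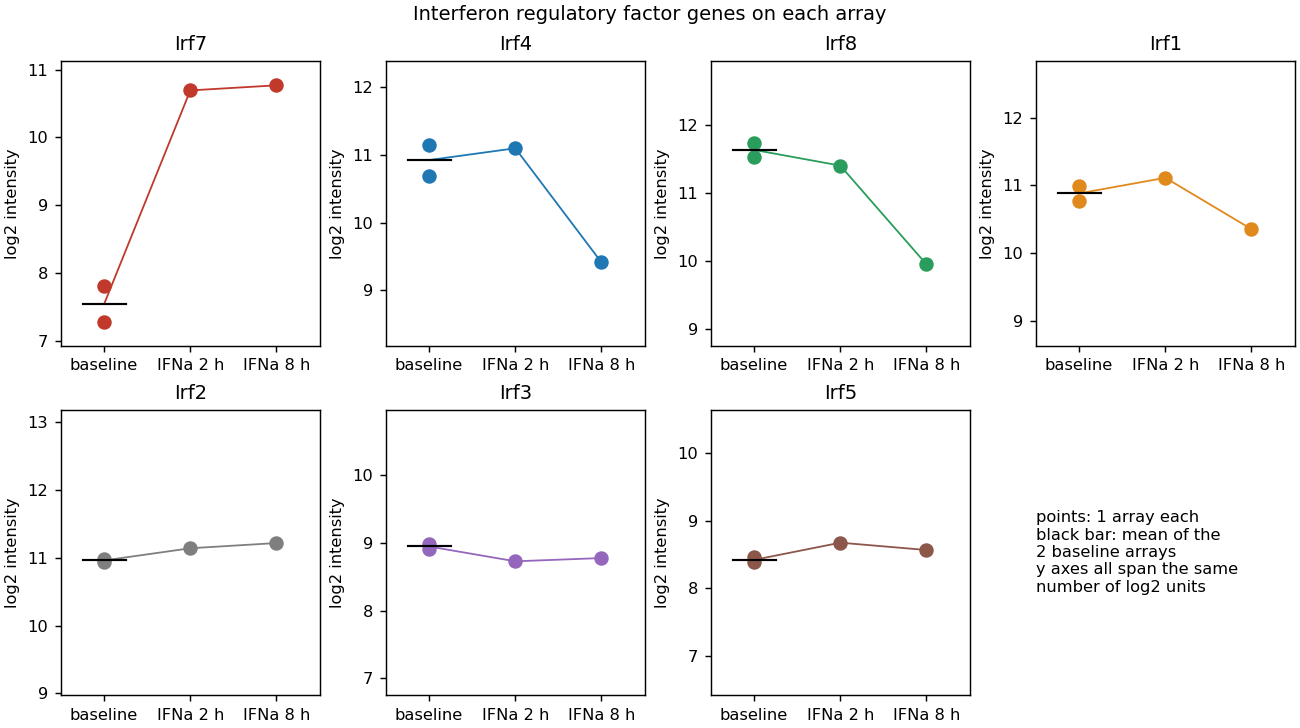
Each panel plots log2 intensity (y axis, the same span in every panel) of 1 interferon regulatory factor gene against treatment (x axis), with 1 point per array, a bar at the mean of the 2 baseline arrays and a line from it through the IFNa arrays. Irf7 stands between 7.28 and 7.80 at baseline and at 10.69 and 10.77 with IFNa, while Irf4 and Irf8 drop on the 8 h array to 9.41 and 9.95.

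Irf7 was the member that rose, at 2 h and at 8 h, with no difference detected between the times. Its log2 intensity was 7.28 on baseline 1 and 7.80 on baseline 2, then 10.69 after 2 h of IFNa and 10.77 after 8 h. Both IFNa arrays lay far above both baseline arrays, and the gap between the IFNa arrays was smaller than that between the baseline arrays. At 2 h it rose 8.88-fold from baseline (log2 difference 3.15, SE 0.25, 95% interval of the fold 5.95 to 13.3, 1 array against 2, adjusted p = 0.0009025). At 8 h it rose 9.36-fold (3.23, SE 0.25, 95% interval of the fold 6.26 to 14.0, adjusted p = 0.000629). Relative to the median of all tested genes these differences were 3.10 and 3.39. Among the tested genes Irf7 ranked 5 from the highest at 2 h and 5 from the highest at 8 h.

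Between the IFNa arrays the difference of Irf7, 8 h minus 2 h, was 0.08 (SE 0.29, 95% interval −0.59 to 0.74, adjusted p = 0.878). That interval spans a fold of 0.663 to 1.67, so a modest rise or fall between the times was not detectable with 1 array a time. Centring each array on its median turned this small difference to −0.10, and it was 0.35 after quantile normalization. Irf7 was also the member whose baseline arrays lay farthest apart, by 0.52, a gap larger than that of 93.3% of the tested genes. On baseline 1 it lay under that array's median of all rows (7.61), a level at which background signal can make a fold too small. Measured from baseline 2 alone the rise was 2.89 at 2 h and 2.97 at 8 h, and from baseline 1 alone 3.41 and 3.49.

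Of the 7 members only Irf7 was called higher at 2 h, where 1.09% of all tested genes were, and no member was called lower, where 0.00935% were (limma, adjusted p under 0.05). At 8 h only Irf7 was called higher, against 0.654% of the tested genes, and Irf4 and Irf8 were called lower, against 3.35%. Irf7 was thus the member called higher at both times, which 0.421% of the tested genes were. These shares depended on the scaling of the arrays, as the closing section gives, but the calls of these 3 members held under every scaling tried.

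Irf4, which antigen receptor signals induce in T cells, lay within its baseline range at 2 h and fell at 8 h. Its log2 intensity was 10.69 on baseline 1 and 11.15 on baseline 2, then 11.10 after 2 h of IFNa and 9.41 after 8 h. The 2 h array lay between the baseline arrays and the 8 h array lay below all the others. At 8 h Irf4 fell to 35.1% of its baseline level (log2 difference −1.51, SE 0.24, 2.85-fold lower, 95% interval of that fold 1.94 to 4.18, 1 array against 2, adjusted p = 0.0187). At 2 h the difference was 0.17 (SE 0.24, 95% interval −0.38 to 0.73, adjusted p = 0.786), and it turned to −0.06 without baseline replicate 1. From 2 h to 8 h Irf4 fell by 1.68 on the log2 scale (SE 0.28, 95% interval −2.32 to −1.04, adjusted p = 0.0151). The baseline arrays differed by 0.46, more than in 89.6% of the tested genes, and the 8 h difference was −1.28 from baseline 1 and −1.74 from baseline 2.

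Irf8, known for its part in the development of dendritic cells and B cells and also made by activated T cells, followed the same course. It stood at 11.74 and 11.53 at baseline, then 11.40 at 2 h and 9.95 at 8 h. Here the 2 h array lay slightly below both baseline arrays and the 8 h array far below them. At 8 h Irf8 fell to 31.0% of its baseline level (log2 difference −1.69, SE 0.21, 3.22-fold lower, 95% interval of that fold 2.31 to 4.50, 1 array against 2, adjusted p = 0.00661). At 2 h the difference was −0.23 (SE 0.21, 95% interval −0.71 to 0.25, adjusted p = 0.678). From 2 h to 8 h it fell by 1.46 (SE 0.24, 95% interval −2.01 to −0.90, adjusted p = 0.0152). From baseline 1 alone the 8 h difference was −1.80 and from baseline 2 alone −1.58.

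Relative to the median of all tested genes the 8 h differences from baseline were −1.35 for Irf4 and −1.53 for Irf8. Counted from the lowest of the tested genes, Irf8 ranked 30 and Irf4 ranked 52 at 8 h against baseline. Both were called lower at 8 h than at 2 h, as were 10.8% of the tested genes, whereas no member was called higher there, as 1.46% were. Irf4 and Irf8 also met the fuller description of a late fall, called lower at 8 h than at baseline and than at 2 h with no call at 2 h, which 2.88% of the tested genes did. These shares moved with the scaling. Between the times 156 genes were called higher and 1155 lower, against 992 and 1316 after quantile normalization. These comparisons share arrays and are not independent of each other.

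Since B cells, dendritic cells and monocytes carry much Irf8, and plasmacytoid dendritic cells much Irf7, their markers were measured beside these results. Of 9 B cell markers with a row, 6 were tested and 3 were dim (under the array median on all 4 arrays), and none was called. Their summed intensity was 3540.5 and 3567 at baseline, then 3412 at 2 h and 4093 at 8 h. The brightest of them, Cd79b, stood at 10.06 and 10.09 at baseline, then 9.99 at 2 h and 10.26 at 8 h. On each array it lay above the upper quartile of all rows. The median difference of the 6 tested B cell markers at 8 h against baseline was 0.18, from −0.10 for Cd22 and −0.10 for Fcer2a to 0.75 for Ms4a1 (SE 0.21, adjusted p = 0.0882). All 6 markers of conventional dendritic cells, among them Itgax, Xcr1 and Flt3, were dim, with sums from 482 at 2 h to 639.6 at 8 h. Of 7 monocyte and macrophage markers 5 were dim, Csf1r and Adgre1 among them, with sums from 879.8 at 2 h to 1180.1 on baseline 1. The other two were not called, with Lyz2 at −0.92 at 2 h and −0.46 at 8 h, and Cd68 at 0.09 and −0.39. The 6 plasmacytoid dendritic cell markers summed to 1930.4 and 1827 at baseline, then 1645 at 2 h and 2009.5 at 8 h, with none called and Siglech dim on every array. Among them Tcf4 stood at 8.08 and 8.20 at baseline, then 8.55 at 2 h and 7.75 at 8 h, with differences of 0.41 and −0.39. The other tested ones, Ccr9, Pacsin1 and Cox6a2, lay at −0.24, −0.33 and −0.42 at 2 h. At 8 h they lay at −0.11, −0.03 and 0.50. The 4 markers of NK cells were dim, and of the 5 of neutrophils and the 3 of erythroid cells with a row 4 and 2 were dim and none was called. The Cd8a and Cd8b1 sum was 1112 and 1001 at baseline, then 921 at 2 h and 1191 at 8 h, with neither called. The lower quartile of intensity over all rows was 81.8 and 70.1 on the baseline arrays, lowest at 2 h (66.8) and highest at 8 h (87.8). The marker sums of plasmacytoid and conventional dendritic cells, CD8 T cells, neutrophils and erythroid cells ran in the same order. Those of B cells, of monocytes and macrophages, and of NK cells did not. The part of other cells in these results was not tested.

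**Figure D2:**
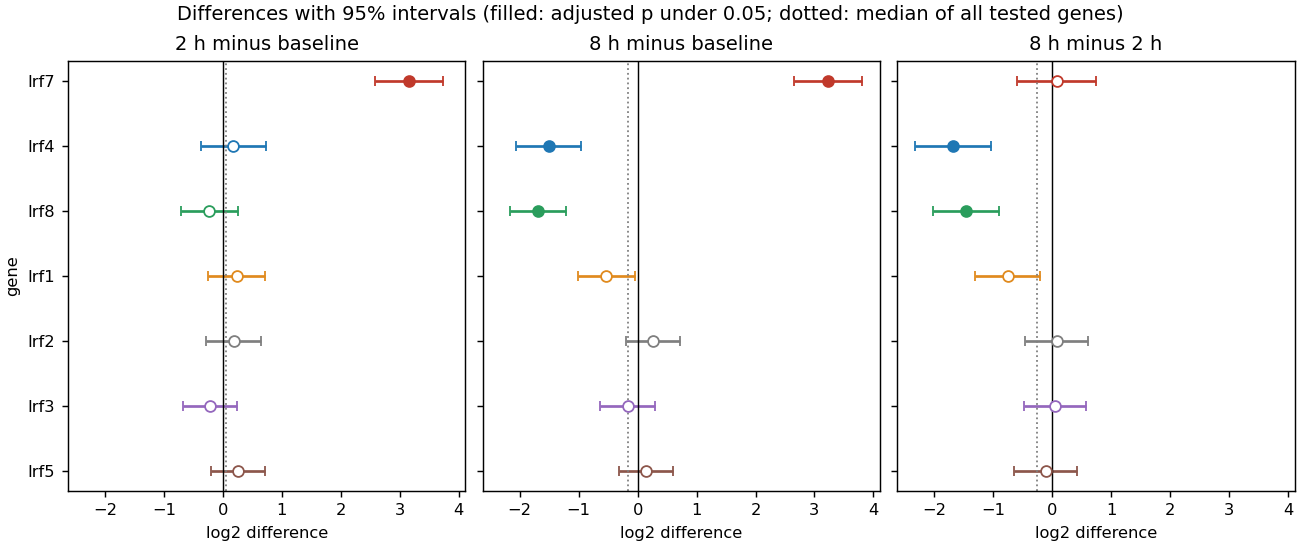
The 3 panels plot log2 differences (x axis) of the 7 genes (y axis) for 2 h minus baseline, 8 h minus baseline and 8 h minus 2 h. Points are estimates of the limma fit with bars for unadjusted 95% intervals, filled points have an adjusted p under 0.05, and the dotted line is the median of all tested genes. Irf7 lies at 3.15 and 3.23 against baseline and at 0.08 between the times, while Irf4 and Irf8 lie at −1.51 and −1.69 at 8 h.

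Irf1, an activator of antigen presentation genes, had an 8 h difference of the same sign as Irf4 and Irf8 but smaller, and passed no test. It stood at 10.78 and 10.99 at baseline, then 11.11 at 2 h and 10.35 at 8 h. The 2 h array was the highest of the 4 and the 8 h array the lowest. The difference was 0.23 at 2 h (SE 0.21, 95% interval −0.25 to 0.71, adjusted p = 0.68). At 8 h it was −0.53 (SE 0.21, adjusted p = 0.174), with an unadjusted 95% interval of −1.01 to −0.05. Between the times it was −0.76 (SE 0.24, adjusted p = 0.0695), and this was the member value that a change of scaling moved across the threshold, to −0.94 (adjusted p = 0.0297) when arrays were median-centred. After quantile normalization it was −0.46 (adjusted p = 0.164). The further row that the annotation gives to Irf1 alone rests on a single listed accession, against 8 for the row used. It stood at 7.79, 7.85, 7.78 and 7.87 on the 4 arrays and did not show the pattern of the main row. With the mean of both rows the 8 h minus 2 h difference was −0.33 (adjusted p = 0.33).

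Irf7, Irf4, Irf8 and Irf1 therefore gave 8 h minus 2 h differences of 0.08, −1.68, −1.46 and −0.76. The 95% interval of Irf7 (−0.59 to 0.74) did not overlap those of Irf4 and Irf8, and it overlapped that of Irf1 (−1.31 to −0.20). A test between genes was not made, because their probes differ and each IFNa time was 1 array. Overlap is a description only, since these unadjusted intervals share arrays and the genes were chosen with earlier results of these data known.

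Irf2, the counterpart of Irf1, passed no test. It stood at 10.94 and 10.98 at baseline, then 11.14 at 2 h and 11.22 at 8 h, with both IFNa arrays above both baseline arrays. The differences from baseline were 0.18 at 2 h (SE 0.20, 95% interval −0.28 to 0.64) and 0.26 at 8 h (SE 0.20, 95% interval −0.20 to 0.72), with an adjusted p of 0.731 and 0.454. Irf3, the constitutive sensor-activated member, stood at 8.91 and 8.98 at baseline, then 8.73 at 2 h and 8.77 at 8 h, with both IFNa arrays below baseline. Its differences were −0.22 (95% interval −0.68 to 0.24) and −0.17 (95% interval −0.63 to 0.29), with an adjusted p of 0.683 and 0.631, and the second turned to 0.10 after quantile normalization.

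Irf5, which acts downstream of Myd88 and is best known in myeloid cells and B cells, stood at 8.38 and 8.46 at baseline, then 8.67 at 2 h and 8.57 at 8 h. Its differences were 0.25 at 2 h (95% interval −0.21 to 0.72) and 0.15 at 8 h (95% interval −0.32 to 0.61), with an adjusted p of 0.634 and 0.689. The baseline arrays of Irf2, Irf3 and Irf5 lay within 0.05, 0.08 and 0.08 of each other, against a median gap of 0.18 over the tested genes. For these 3 genes the intervals did not reach a doubling or a halving at either time, and smaller changes were not detectable. Between the IFNa times their differences were 0.08, 0.05 and −0.11. The signs for Irf2 and Irf3 turned under median centring and that for Irf5 after quantile normalization.

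The 2 h array lay above both baseline arrays for Irf1, Irf2, Irf5 and Irf7, which 44.5% of the tested genes also did, and below both for Irf3 and Irf8, as did 33% of the tested genes. The 8 h array lay above both for Irf2, Irf5 and Irf7, against 24.4% of the tested genes, and below both for Irf1, Irf3, Irf4 and Irf8, against 55.9%. Such an ordering was common among all genes.

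**Figure D3:**
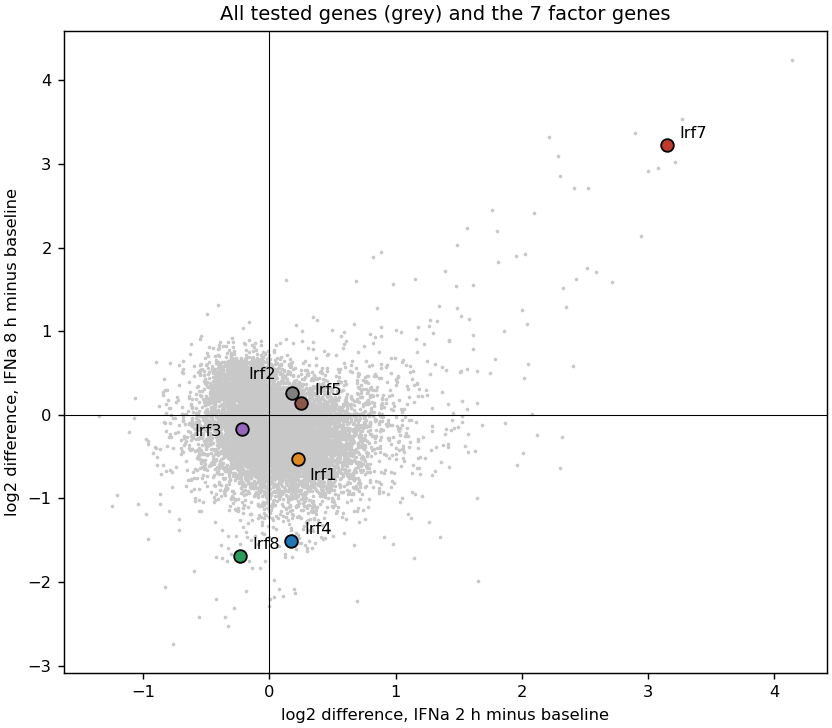
Each grey point is 1 of the 10699 tested genes, with its log2 difference from baseline at 2 h on the x axis and at 8 h on the y axis, and the 7 factor genes are coloured and named. The 2 axes share the baseline arrays. Irf7 lies at 3.15 and 3.23 in the upper right, Irf4 (0.17 and −1.51) and Irf8 (−0.23 and −1.69) lie at the lower edge, and the other 4 lie within the cloud.

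The genes whose 4 arrays most resembled each of these members were ranked by the root mean square distance between values taken minus each gene's own baseline mean, over the 4 arrays. Nearest to Irf7 were Usp18 (distance 0.14), which removes ISG15 from proteins and restrains the interferon receptor, Ifi208 (0.20) of the Ifi200 family, Rsad2 (0.25), which makes an antiviral nucleotide, Ifit1 (0.30), which binds viral RNA, and Oasl2 (0.31). These 5 genes had 2 h differences from 2.90 to 3.22 and 8 h differences from 2.92 to 3.37.

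Nearest to Irf4 were Fabp5 (distance 0.03), a fatty acid carrier, Fdps (0.05), an enzyme of the mevalonate pathway, Xpot (0.05), which exports transfer RNA from the nucleus, the pseudouridine synthase Pus7 (0.08) and Slc7a5 (0.09), the large neutral amino acid transporter. They had 8 h differences from −1.60 to −1.44 and 2 h differences from 0.18 to 0.30, with each called lower at 8 h and none called at 2 h. Nearest to Irf8 were the small nucleolar RNA Snora75 (0.08), the actin-binding Coro2a (0.09), the receptor gene F2rl2 (0.10), Hsd17b7 (0.12), an enzyme of sterol synthesis, and Lta (0.12), the cytokine lymphotoxin alpha. Their 8 h differences ran from −1.74 to −1.56 and their 2 h differences from −0.38 to −0.03. The distance between Irf4 and Irf8 themselves was 0.33, and that of Irf7 from Irf4 and Irf8 was 2.80 and 2.99. Irf1 lay in a dense part of the distribution, with Vhl, Mrps25, Cwc27, Tnpo3 and Tmem201 all within 0.02 of it and none of them called. With 4 arrays such likeness rests largely on the 2 IFNa arrays. All these neighbours, those of Irf7 included, were picked by these same values, so their differences and calls follow from the choice.

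**Figure D4:**
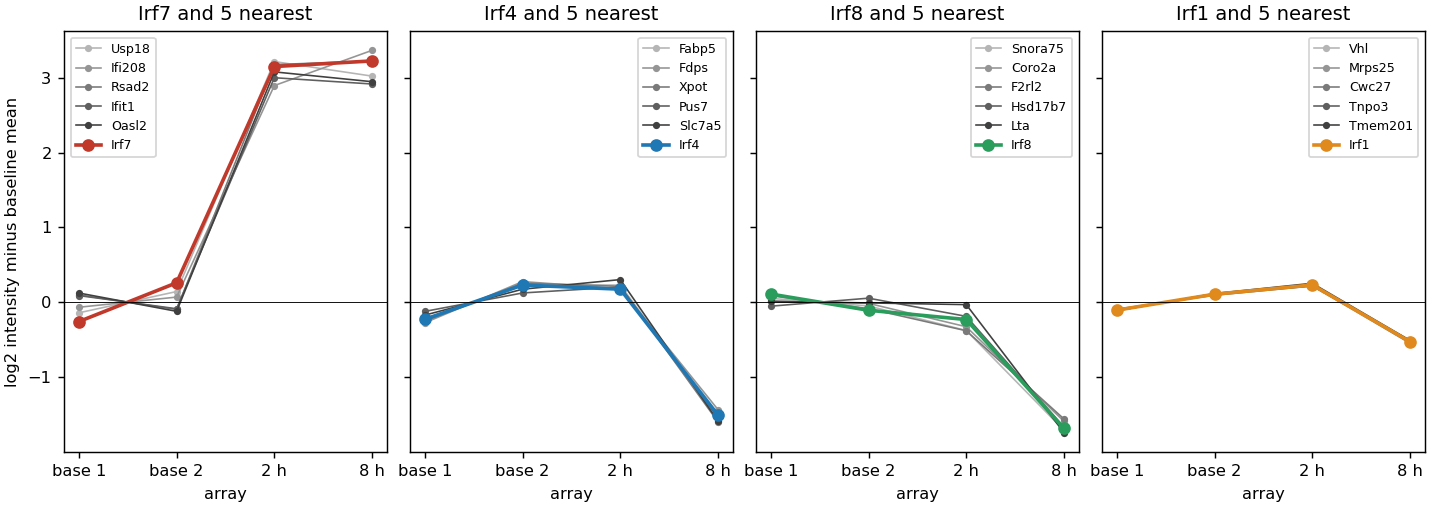
Each panel plots log2 intensity minus the gene's baseline mean (y axis) on the 4 arrays (x axis) for 1 factor gene in colour and the 5 tested genes nearest to it in grey. The lines of Irf7 and its neighbours rise to between 2.90 and 3.37 on the IFNa arrays, and those of Irf4 and Irf8 and their neighbours drop to between −1.74 and −1.44 at 8 h.

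Stat2 and Irf9 belong to ISGF3, which drives Irf7. Both genes lay above both baseline arrays at 2 h and at 8 h, and neither was called between the times. The 8 h minus 2 h difference was −0.54 for Stat2 (95% interval −1.15 to 0.06) and −0.05 for Irf9 (95% interval −0.58 to 0.49). Stat2 stood at 9.12 and 9.50 at baseline, then 10.73 at 2 h and 10.19 at 8 h, and rose at 2 h (1.42, SE 0.23, adjusted p = 0.0261), with 0.88 (SE 0.23, adjusted p = 0.0725) at 8 h. Irf9 stood at 10.16 and 10.28, then 11.26 and 11.22, and rose at 8 h (0.99, SE 0.20, adjusted p = 0.0388), with 1.04 (SE 0.20, adjusted p = 0.0613) at 2 h.

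The adaptors and kinases that activate Irf3, Irf5 and Irf7 held no call against baseline. Of 18 listed genes 14 were tested, with median differences of 0.24 at 2 h and −0.07 at 8 h, beside 0.06 and −0.16 over all tested genes. At 2 h the ubiquitin ligase Traf6, which joins Myd88 to Irf5 and Irf7, stood at 0.91 (SE 0.24, adjusted p = 0.18) and the kinase Tbk1, which phosphorylates Irf3, at 0.59 (SE 0.21, adjusted p = 0.326). At 8 h the related kinase Ikbke stood at 0.52 (SE 0.28, adjusted p = 0.279) and Traf6 at −0.47 (SE 0.24, adjusted p = 0.263). Between the times Traf6 fell (−1.37, SE 0.28, adjusted p = 0.0239), 1 of 14 beside 10.8% of all tested genes.

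Of 14 listed DNA-binding partners of Irf4 and Irf8, 13 were tested, since Spi1, which encodes PU.1, was dim on every array. The list held no call at 2 h (median 0.18), where the repressor Etv6 stood at 0.80 (SE 0.20, adjusted p = 0.155) and Junb at 0.41 (SE 0.26, adjusted p = 0.567). At 8 h 1 of the 13 fell (median −0.04), beside 3.35% of all tested genes, namely Jun (−1.38, SE 0.23, adjusted p = 0.022), from 8.28 and 8.68 at baseline to 8.79 at 2 h and 7.10 at 8 h. Between the times Jun (−1.69, SE 0.27, adjusted p = 0.0136) and Etv6 (−1.61, SE 0.23, adjusted p = 0.0114) fell, 2 of 13 beside 10.8% of all tested genes. Batf, the AP-1 partner with which Irf4 binds in T cells, stood at −0.29 (SE 0.25, adjusted p = 0.497) at 8 h.

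The 3 genes listed as corepressors that bind Irf2 held no call in any comparison. Irf2bp1 stood at −0.22 at 2 h and −0.05 at 8 h, with 0.17 for 8 h minus 2 h. The other genes of this list had the opposite sign at 2 h and between the times. Irf2bp2 stood at 0.97 (SE 0.22, adjusted p = 0.107) and Irf2bpl at 0.89 (SE 0.25, adjusted p = 0.192) at 2 h, and at 0.07 and −0.02 at 8 h. Their 8 h minus 2 h differences were −0.90 (adjusted p = 0.052) and −0.92 (adjusted p = 0.064).

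Of 14 listed proteins that modify the factors or hold them back, 12 were tested. None was called at 2 h (median 0.33), with Ifi35 at 1.06 (SE 0.23, adjusted p = 0.0838) and Trim21, a ubiquitin ligase of several of these factors, at 0.93 (SE 0.20, adjusted p = 0.0889). At 8 h the immunophilin Fkbp4, which binds Irf4, fell (−1.08, SE 0.23, adjusted p = 0.0435; median −0.01), 1 of 12 beside 3.35% of all tested genes. Between the times 4 of 12 fell, beside 10.8% of all tested genes, namely Fkbp4 (−1.31, SE 0.27), Swap70, a relative of the Irf4-binding Def6 (−0.99, SE 0.23), the phosphatase Ptpn11 (−0.90, SE 0.24) and the NF-kB inhibitor Tnfaip3 (−0.87, SE 0.23), with an adjusted p between 0.0245 and 0.0492.

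Genes linked to the factors were described in the same way, and a place in these lists does not mean that the factor switches the gene on. Of 20 type I and type III interferon genes, the output of Irf3 and Irf7, 15 had a row of their own, 11 of them were dim on every array and 4 were tested. Ifnb1 stood at 5.42 and 5.40 at baseline, then 5.21 at 2 h and 5.43 at 8 h, all below the arrays' medians. None of the 4 was called against baseline (medians −0.35 at 2 h and 0.48 at 8 h), with Ifnz at −0.69 (SE 0.31, adjusted p = 0.416) and Ifna5 at −0.38 (SE 0.23, adjusted p = 0.527) at 2 h, and with Ifna5 at 0.63 (SE 0.23, adjusted p = 0.146) and Ifna14 at 0.51 (SE 0.21, adjusted p = 0.181) at 8 h. Between the times Ifna5 rose (1.01, SE 0.26, adjusted p = 0.0437), 1 of 4 beside 1.46% of all tested genes. The alpha interferon genes are near-identical copies, so their probes may share signal. The 4 tested genes were the alpha genes Ifna5 and Ifna14, with Ifnz and the type III gene Ifnl2, which are not alpha genes. Their 8 h minus 2 h differences ran from 0.77 to 1.01. Summed over the 15 genes, intensity was 2666 and 2103 at baseline, then 1863 at 2 h and 3155 at 8 h. The lower quartile of intensity over all rows ran in the same order, and what lies behind these differences was not tested.

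Of 16 genes linked to Irf1, many of them in class I antigen presentation, 11 were tested and none was called at 2 h (median 0.35), where Cd274, the PD-1 ligand, stood at 1.18 (SE 0.23, adjusted p = 0.0567) and Tapbp at 0.76 (SE 0.25, adjusted p = 0.288). At 8 h Socs1, an inhibitor of Janus kinases, fell (−1.05, SE 0.23, adjusted p = 0.0452; median 0.05), 1 of 11 beside 3.35% of all tested genes. Between the times Cd274 (−1.70, SE 0.26, adjusted p = 0.013) and Socs1 (−1.32, SE 0.27, adjusted p = 0.0239) fell, 2 of 11 beside 10.8% of all tested genes.

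Of 20 genes linked to Irf4 in activated T cells, 15 were tested. Ahr, the aryl hydrocarbon receptor, rose at 2 h (1.29, SE 0.20, adjusted p = 0.022; median of the list 0.07), 1 of 15 beside 1.09% of all tested genes. At 8 h the cytokine gene Il4 fell (−1.37, SE 0.20, adjusted p = 0.0128; median −0.24), from 9.17 on both baseline arrays and 9.22 at 2 h to 7.80, again 1 of 15 beside 3.35% of all tested genes. Between the times Ahr (−2.01, SE 0.23, adjusted p = 0.0079), Il4 (−1.43, SE 0.23, adjusted p = 0.0142) and Bcl6, a factor of follicular helper cells (−0.96, SE 0.24, adjusted p = 0.0382), fell, 3 of 15 beside 10.8% of all tested genes. Called counts this small say nothing particular about a list. Prdm1, Maf, Gata3, Ctla4, Icos, Tbx21 and Il2ra were tested and not called in any comparison. Il10, Il21, Il17a and Ccr6 were dim.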

How the data were processed

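Each sample was hybridised to an Affymetrix Mouse Gene 1.0 ST array. The deposited values are linear intensity, summarised by the authors with RMA (the submitters' processing notes also name Affymetrix Power Tools). Software versions, the build and which arrays were summarised jointly were not stated. Log2 of the deposited intensity was taken with no pseudocount.

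Of 24922 rows, 21425 had a single gene symbol in the platform annotation. The row with the highest mean stood for each of 19752 genes, and 10699 genes, all 7 members among them, exceeded the median of an array somewhere and were tested. Limma 3.58.1 in R 4.3.3 fitted group means across all tested genes with empirical Bayes moderation (1 residual and 7.46 prior degrees of freedom). Tests were two-sided, with Benjamini-Hochberg adjustment over all tested genes and a threshold of 0.05. Intervals are moderated and unadjusted. The fit was tested on simulated data in which all arrays varied alike and shared 1 scale. That test could not check whether the real arrays do.

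Named genes were the members, the 5 genes nearest to each of Irf7, Irf4, Irf8 and Irf1, and up to 4 called genes per list and comparison, or 2 as values where none was called. List genes and markers named beyond this rule were chosen after their values were seen. The members and lists were chosen with earlier results of these data known. Promoter windows came from RefSeq (GRCm38.p6).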

Additional observations from a re-analysis of the deposited data

Results flagged for a closer look

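The change of Irf4 from baseline differed between the times, by −1.68 on the log2 scale at 8 h against 2 h (SE 0.28, adjusted p = 0.0151, limma), and that of Irf8 by −1.46 (SE 0.24, adjusted p = 0.0152), each from 1 array a time.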

How the results depend on the processing

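The 7 genes' differences in 3 comparisons were recomputed under 8 alternatives with a test, 168 values in all, of which 162 kept their direction and their side of the threshold. Over these 8, Irf7 ran from 3.03 to 3.25 at 2 h and from 3.12 to 3.39 at 8 h, Irf4 from −1.59 to −1.26 and Irf8 from −1.77 to −1.48 at 8 h, all called, with adjusted p at most 0.0415. For 8 h against 2 h under median centring, Irf1 became called (−0.94), and the values near 0 of Irf7 (−0.10), Irf2 (−0.10) and Irf3 (−0.13) changed sign. After quantile normalization Irf5 (0.22) for 8 h against 2 h and Irf3 (0.10) for 8 h against baseline changed sign. Leaving out either baseline array left no residual degree of freedom and so no test. Without baseline replicate 1 and without baseline replicate 2, Irf7 was 2.89 and 3.41 at 2 h and 2.97 and 3.49 at 8 h. In the same order, Irf4 was −1.74 and −1.28 and Irf8 −1.58 and −1.80 at 8 h. Irf4 at 2 h against baseline was −0.055 without baseline replicate 1 and 0.40 without baseline replicate 2.

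Counts over all tested genes moved with the settings. The main counts were 118 at 2 h, 428 at 8 h and 1311 between the times. They became 441, 1566 and 2308 after quantile normalization, 298, 794 and 2387 with centred arrays, and 188, 1031 and 2999 at an adjusted p under 0.1. At least 2-fold differences, with no test, numbered 196 at 2 h, 144 without baseline replicate 1 and 366 without baseline replicate 2. At 8 h they numbered 339, then 528 and 310. With no filter on dim genes 143 were called at 8 h and 415 between the times, and with the filter at the 60th percentile 255 at 8 h. The cause was not tested. The split of higher against lower calls also moved. At 8 h it was 70 and 358, against 665 and 901 after quantile normalization, and at 2 h 117 and 1, against 332 and 109. Between the times it was 156 and 1155, and became 992 and 1316 under quantile normalization or 72 and 2315 under median centring.

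No paired analysis was possible because each IFNa time has 1 array and the groups share fewer than 2 replicate numbers. Each IFNa time rests on 1 array, which was kept in every alternative.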
